A study of Homo sapiens with 6 samples.

Results

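The expression of 10 genes of the Polycomb system was followed in K562 cells from which an ultraconserved element (UCE) had been deleted. The genes were taken by symbol from the count table and are the rows for EZH1, EZH2, SUZ12, EED, BMI1, RING1, RNF2, CBX2, CBX8 and KDM6B, 10 of 52088 entries. All 10 passed the filter on low counts, as did 20746 entries in total. K562 is an established human erythroleukaemia line. The PAX6_Ta KO libraries came from K562 cells lacking the UCE PAX6_Tarzan, the PBX3_Cl KO libraries from K562 cells lacking the UCE PBX3_Claudia, and the Control libraries from K562 cells of wild-type genotype, with 2 libraries per group and 6 in all. For the knockouts, cells were transfected with a plasmid carrying Cas9 and paired guides, selected with puromycin and grown from single picked clones. The labels do not say that the Control cells had been through editing or cloning, nor that the 2 replicates of a group were separate clones or cultures, so a p-value reflects no more than how far these libraries scatter, possibly for technical reasons, and clone and deletion cannot be told apart.

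Polycomb proteins keep developmental genes silent, and the HOX clusters are their best-known targets. Polycomb repressive complex 2 (PRC2) places the H3K27me3 mark through EZH2 or its paralogue EZH1, which are active only when bound to SUZ12 and EED. Canonical Polycomb repressive complex 1 (PRC1) reads that mark through a CBX protein, here CBX2 or CBX8, and holds the ubiquitin ligase RING1 or RNF2 together with a PCGF protein such as BMI1, and KDM6B works against both complexes by removing H3K27me3.

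The libraries held 48296088 to 49843547 counts in PAX6_Ta KO, 45912044 to 48128890 in PBX3_Cl KO and 47949941 to 60908470 in Control. Each gene of the 10 had at least 484 counts in every library. The correlation of log2 CPM (each gene's count as a share of the library's depth, CPM, scaled by TMM) between replicates was 0.988 in PAX6_Ta KO, 0.977 in PBX3_Cl KO and 0.985 in Control, against 0.931 to 0.951 between libraries of different groups. All 10 erythroid and K562 markers were detected in every group, with a summed level of 9009 to 10579 CPM in PAX6_Ta KO, 7145 to 8623 CPM in PBX3_Cl KO and 5684 to 6599 CPM in Control. Because these are bulk libraries, fewer cells expressing a gene and less RNA per cell cannot be told apart.

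With the replicate number left out of the fit, the PAX6_Ta KO libraries had less CBX2 than Control, and no other of the 10 genes passed. The test was edgeR's quasi-likelihood test with Benjamini-Hochberg adjustment over all 20746 genes and a threshold of 0.05. In PAX6_Ta KO against Control, 1 of the 10 genes was lower (CBX2) and none was higher. Over all tested genes, 11.4% passed in that comparison, 7.21% higher and 4.21% lower, so 1 of 10 did not exceed the share over all genes. At an unadjusted p under 0.05 there were 3 genes (CBX2, EZH2 and EED), beside 22.7% of all genes, and DESeq2 also called 1 gene. With the replicate number as a block 2 genes were called, CBX2 and EZH2, beside 3548 of all 20746 genes in place of 2370. In 5 of the 10 genes the PAX6_Ta KO and Control libraries did not overlap, which was true of 55.0% of all genes. The median log2 fold change of the 10 genes was -0.21, with 8 below 0, beside a median of -0.02 over all genes, of which 51.8% were below 0.

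In PBX3_Cl KO against Control none of the 10 genes passed, by edgeR or by DESeq2, and 1 (EED) had an unadjusted p under 0.05 and was called with the replicate number as a block. The background in this comparison was 8.97% of genes called, 6.28% higher and 2.69% lower, with 19.6% at an unadjusted p under 0.05. Under the block, 2798 of all 20746 genes were called in place of 1860. The groups did not overlap in 3 of the 10 genes (EZH2, EED and RING1), beside 44.1% of all genes, and the median log2 fold change was -0.06. The PAX6_Ta KO and PBX3_Cl KO comparisons share the Control libraries, so a gene that is unusual in Control appears in both.

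Set directly against each other, PAX6_Ta KO had less CBX2 and less EZH2 than PBX3_Cl KO, and the other 8 genes did not pass. These 2 lower genes compare with 12.0% of all genes called, 5.26% higher and 6.71% lower, and both had an unadjusted p under 0.05, as had 24.3% of all genes. They were also the 2 of 10 whose groups did not overlap, against 49.6% of all genes, and the median log2 fold change of the 10 was -0.07.

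**Figure D1:**
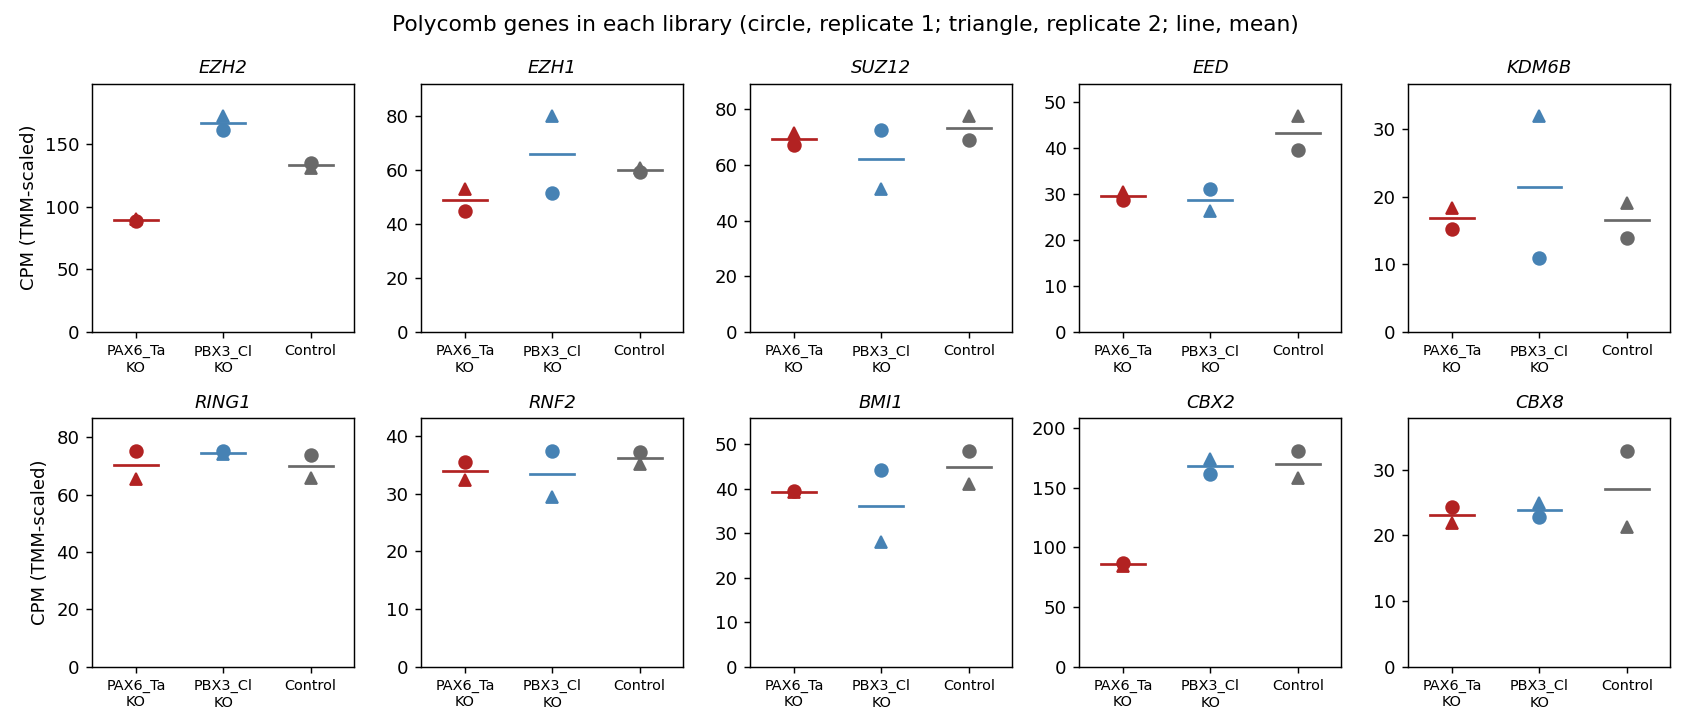
Level of each gene in each library, in CPM scaled by TMM on linear axes that start at 0, for PAX6_Ta KO, PBX3_Cl KO and Control (circle, replicate 1; triangle, replicate 2; line, mean of 2). CBX2 and EZH2 are lowest in both PAX6_Ta KO libraries, EED is highest in both Control libraries, and KDM6B is spread widest in PBX3_Cl KO.

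**Figure D2:**
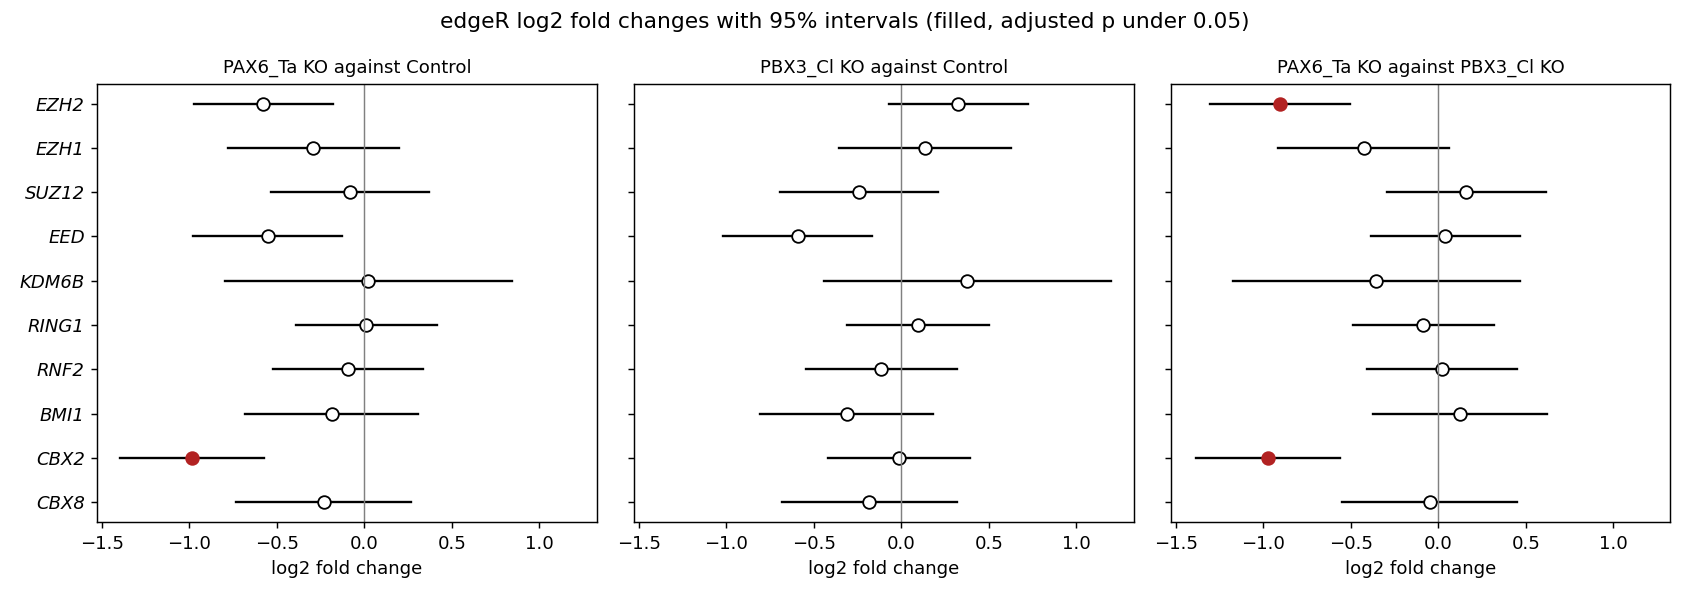
log2 fold change (x axis) of each gene (y axis) in each knockout against Control (left and middle) and between the knockouts (right), with bars for the 95% interval of the edgeR fit. Filled points passed the adjusted threshold and are CBX2 in the first panel and EZH2 and CBX2 in the last.

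CBX2, a chromodomain subunit that brings canonical PRC1 to H3K27me3 and compacts chromatin, showed the largest change of the 10 in PAX6_Ta KO. It had 4163 and 4469 counts in PAX6_Ta KO, 7143 and 7998 in PBX3_Cl KO, and 10880 and 7993 in Control. Scaled for depth this was 86.7 and 84.9 CPM in PAX6_Ta KO, 162 and 175 CPM in PBX3_Cl KO, and 181 and 158 CPM in Control. Both PAX6_Ta KO libraries lay below the other 4, while PBX3_Cl KO and Control overlapped. The mean in PAX6_Ta KO was 85.8 ± 1.27 CPM, against 170 ± 16.2 CPM in Control (SD, n = 2 each), or 1.98-fold lower. On the log2 scale the change was -0.98 (SE 0.189, 95% interval -1.40 to -0.57, edgeR adjusted p = 0.00438). Against PBX3_Cl KO it was -0.97 (SE 0.189, edgeR adjusted p = 0.00486). In PBX3_Cl KO against Control the log2 fold change was -0.01, with a 95% interval of -0.42 to 0.40 (edgeR adjusted p = 0.989).

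The CBX2 call against Control held in all 14 alternatives, with log2 fold changes of -1.09 to -0.88. With no library left out, the adjusted p ran from 2.6e-04 (DESeq2 Wald test) to 0.00651 (edgeR with DESeq2 size factors). The call lay only just under the threshold without PAX6_Ta KO replicate 1, without PAX6_Ta KO replicate 2 or without Control replicate 1. Each of these fits left 1 library in a group. The call against PBX3_Cl KO held in 13 of 14 and was lost without PAX6_Ta KO replicate 2 (edgeR adjusted p = 0.0609). Genes on the same chromosome arm, 17q, had a median log2 fold change of 0.04 in PAX6_Ta KO against Control over 565 tested protein-coding genes.

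CBX2 lies at chr17:77751947-77761782 (GRCh37, plus strand), and CBX8 begins 4.15 kb downstream on the minus strand at chr17:77765931-77775482. CBX8, the paralogue that pairs with similar PRC1 partners, had 1166 and 1152 counts in PAX6_Ta KO, 1008 and 1141 in PBX3_Cl KO, and 1975 and 1076 in Control. Its levels were 24.3 and 21.9 CPM in PAX6_Ta KO, 22.9 and 24.9 CPM in PBX3_Cl KO, and 32.9 and 21.3 CPM in Control, so the 2 Control libraries enclosed the other 4. CBX8 had a log2 fold change of -0.23 in PAX6_Ta KO against Control (95% interval -0.73 to 0.27, edgeR adjusted p = 0.658) and -0.18 in PBX3_Cl KO against Control (edgeR adjusted p = 0.772). A non-coding gene overlaps CBX8 on the opposite strand. The sources used here do not give the strand setting of the counting, so reads of the pair may be mixed. Annotated genes on the opposite strand also overlap EZH1, EZH2, SUZ12, EED, RNF2 and KDM6B. CBX2 was thus lower in PAX6_Ta KO without a change in CBX8 that passed.

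The ratio of CBX2 to CBX8 per kilobase of canonical transcript was 2.89 and 3.15 in PAX6_Ta KO, 5.74 and 5.68 in PBX3_Cl KO, and 4.47 and 6.02 in Control. Both PAX6_Ta KO libraries had a lower ratio than the other 4, and the ratio, which restates the CBX2 counts, was not tested.

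EZH2, the main H3K27 methyltransferase of dividing cells, had 4263 and 4736 counts in PAX6_Ta KO, 7123 and 7908 in PBX3_Cl KO, and 8130 and 6621 in Control. This was 88.8 and 90.0 CPM in PAX6_Ta KO, 162 and 173 CPM in PBX3_Cl KO, and 135 and 131 CPM in Control. The 3 groups did not overlap, with PAX6_Ta KO lowest and PBX3_Cl KO highest. PAX6_Ta KO averaged 89.4 ± 0.847 CPM, against 167 ± 7.83 CPM in PBX3_Cl KO (SD, n = 2 each), 1.87-fold lower. On the log2 scale the difference was -0.90 (SE 0.184, 95% interval -1.30 to -0.50, edgeR adjusted p = 0.00643). Against Control, EZH2 in PAX6_Ta KO had a log2 fold change of -0.58 (SE 0.183, edgeR adjusted p = 0.0652), which did not pass, while a fit blocked on the replicate number gave an adjusted p of 0.0178. In PBX3_Cl KO against Control the value was 0.33 (95% interval -0.07 to 0.72, edgeR adjusted p = 0.379).

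EZH2 lies on 7q (chr7:148504349-148581413, GRCh37, minus strand), where the median gene lay on the same side of 0 as EZH2 in each comparison. The median log2 fold change of 420 tested protein-coding genes on 7q was -0.64 in PAX6_Ta KO against PBX3_Cl KO, while PAX6_Ta KO stood at -0.23 and PBX3_Cl KO at 0.37 when set against Control. Of these genes, 84.3% were below 0 in PAX6_Ta KO against PBX3_Cl KO, 71.7% were below 0 in PAX6_Ta KO against Control, and 81.4% were above 0 in PBX3_Cl KO against Control. With each arm's median taken out, EZH2 had a log2 fold change of -0.30 in PAX6_Ta KO against PBX3_Cl KO (edgeR adjusted p = 0.396), so the call was lost. Under the same adjustment it had -0.34 in PAX6_Ta KO against Control (edgeR adjusted p = 0.362) and -0.04 in PBX3_Cl KO against Control (edgeR adjusted p = 0.960). The call between the knockouts was also lost without PAX6_Ta KO replicate 1 (edgeR adjusted p = 0.0798) or without PAX6_Ta KO replicate 2 (edgeR adjusted p = 0.0748), at nearly the same fold change.

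EZH1, the paralogue that takes over more of the methylation in resting cells, did not pass in any comparison. Its levels were 44.8 and 53.1 CPM in PAX6_Ta KO, 51.6 and 80.0 CPM in PBX3_Cl KO, and 59.1 and 60.7 CPM in Control. Counts were 2154 and 2795 in PAX6_Ta KO, 2274 and 3666 in PBX3_Cl KO, and 3548 and 3067 in Control. The log2 fold change was -0.29 in PAX6_Ta KO against Control (edgeR adjusted p = 0.534), 0.14 in PBX3_Cl KO against Control (edgeR adjusted p = 0.838) and -0.43 between the knockouts (edgeR adjusted p = 0.282). These EZH1 values depended on the PBX3_Cl KO library used. Between the knockouts EZH1 had -0.67 without PBX3_Cl KO replicate 1 (edgeR adjusted p = 0.0391) and -0.09 without PBX3_Cl KO replicate 2 (edgeR adjusted p = 0.810). In PBX3_Cl KO against Control it had 0.38 without PBX3_Cl KO replicate 1 and turned to -0.21 without PBX3_Cl KO replicate 2.

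The 2 methyltransferases together stood at 43.1 and 45.4 CPM per kb in PAX6_Ta KO, 72.0 and 82.3 in PBX3_Cl KO, and 63.8 and 62.5 in Control. EZH2 made up 77.6 and 74.7% of that sum in PAX6_Ta KO, 84.5 and 79.0% in PBX3_Cl KO, and 80.0 and 79.0% in Control. EZH2 was therefore the more abundant transcript of the pair per kilobase in every library.

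EED, the subunit that binds H3K27me3 and so lets PRC2 spread its own mark, had its highest levels in the 2 Control libraries. It had 1377 and 1604 counts in PAX6_Ta KO, 1372 and 1210 in PBX3_Cl KO, and 2386 and 2376 in Control. This was 28.7 and 30.5 CPM in PAX6_Ta KO, 31.1 and 26.4 CPM in PBX3_Cl KO, and 39.7 and 47.0 CPM in Control, without overlap between either knockout and Control. The log2 fold change was -0.55 in PAX6_Ta KO (95% interval -0.98 to -0.13, edgeR adjusted p = 0.0998) and -0.59 in PBX3_Cl KO (95% interval -1.02 to -0.17, edgeR adjusted p = 0.0913), and neither passed. With the replicate number as a block the adjusted p became 0.0506 for PAX6_Ta KO and 0.0474 for PBX3_Cl KO, so the PBX3_Cl KO value passed under that fit. EED lies on 11q, whose median log2 fold change was 0.01 and 0.04 in these comparisons. In PAX6_Ta KO against PBX3_Cl KO, EED had a log2 fold change of 0.04 (95% interval -0.39 to 0.47).

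SUZ12, the scaffold on which PRC2 is built, had 67.1 and 71.5 CPM in PAX6_Ta KO, 72.6 and 51.3 CPM in PBX3_Cl KO, and 69.0 and 77.6 CPM in Control. The counts behind these levels were 3222 and 3765 in PAX6_Ta KO, 3202 and 2352 in PBX3_Cl KO, and 4142 and 3918 in Control. All groups overlapped, and the log2 fold change was -0.08 in PAX6_Ta KO (edgeR adjusted p = 0.898) and -0.24 in PBX3_Cl KO (edgeR adjusted p = 0.631) against Control. The SUZ12 value of PBX3_Cl KO was -0.55 without its replicate 1 (edgeR adjusted p = 0.0999) and -0.01 without its replicate 2 (edgeR adjusted p = 0.988). SUZ12 is uncertain because a near-identical copy, SUZ12P1, held 1072 and 1416 counts in PAX6_Ta KO, 832 and 983 in PBX3_Cl KO, and 1616 and 1385 in Control. The copies EZH2P1, RNF2P1, BMI1P1 and EEDP1 held 0 to 2 counts in every library.

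The promoters of EZH2, SUZ12 and EED are shown because these 3 PRC2 subunits form a single enzyme and had log2 fold changes of -0.90, 0.16 and 0.04 in PAX6_Ta KO against PBX3_Cl KO, of which that of EZH2 passed. Each stretch runs 5′ to 3′ from 200 bases before the RefSeq start to 20 after it (GRCh38.p14, RefSeq), and capitals mark CCAAT boxes (CCAAT, or ATTGG on the other strand) and E2F words (TTTGGCGC, TTTCCCGC, TTTCGCGC or TTTGCCGC on either strand). In these stretches no E2F word overlapped a CCAAT box.
EZH2 (chr7:148884272-148884491, minus strand): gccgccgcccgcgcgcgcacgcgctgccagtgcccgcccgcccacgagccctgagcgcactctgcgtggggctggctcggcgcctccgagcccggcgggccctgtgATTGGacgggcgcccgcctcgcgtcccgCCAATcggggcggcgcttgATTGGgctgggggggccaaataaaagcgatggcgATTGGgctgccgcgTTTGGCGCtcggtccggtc
SUZ12 (chr17:31936807-31937026, plus strand): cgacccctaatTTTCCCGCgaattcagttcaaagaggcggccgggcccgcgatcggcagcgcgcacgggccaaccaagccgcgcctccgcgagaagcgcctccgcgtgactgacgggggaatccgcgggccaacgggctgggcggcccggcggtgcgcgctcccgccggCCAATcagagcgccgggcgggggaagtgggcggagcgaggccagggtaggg
EED (chr11:86244553-86244772, plus strand): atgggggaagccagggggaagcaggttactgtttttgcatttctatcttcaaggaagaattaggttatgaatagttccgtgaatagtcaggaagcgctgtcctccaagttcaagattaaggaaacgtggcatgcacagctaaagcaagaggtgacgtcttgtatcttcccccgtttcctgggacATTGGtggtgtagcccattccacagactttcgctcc

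The EZH2 stretch held 4 CCAAT boxes and 1 E2F word, the SUZ12 stretch 1 CCAAT box and 1 E2F word, and the EED stretch 1 CCAAT box and no E2F word. EZH2 has a further RefSeq start, not printed, whose window held 0 CCAAT boxes and 0 E2F words. In all, 8 of the 10 genes had windows in the RefSeq table, and CBX2 and CBX8 were not matched. In the full windows of 300 bases, 3 of the 8 held a CCAAT box and 3 an E2F word, the last being EZH2, SUZ12 and EZH1. Of all 35116 windows in the table, 34.6% held CCAAT, 0.991% held 4 or more (a cut set at the EZH2 number) and 3.31% held an E2F word. These shares are per window, while the 8 are genes, of which EZH2, BMI1 and KDM6B had 2 windows each, so the units differ. E2F factors are known regulators of EZH2 and EED in dividing cells. The matches describe the letters only, and no factor binding was measured.

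The ubiquitin ligases of PRC1 differed little between groups. RING1 had 75.4 and 65.5 CPM in PAX6_Ta KO (3620 and 3449 counts), 75.3 and 74.1 CPM in PBX3_Cl KO (3320 and 3396 counts), and 73.8 and 65.9 CPM in Control (4433 and 3330 counts). RNF2, the more active ligase of the pair in most cells, had 35.6 and 32.3 CPM in PAX6_Ta KO (1708 and 1700 counts), 37.4 and 29.4 CPM in PBX3_Cl KO (1650 and 1348 counts), and 37.2 and 35.2 CPM in Control (2232 and 1776 counts). Against Control, the log2 fold change of RING1 was 0.01 in PAX6_Ta KO (95% interval -0.39 to 0.42) and 0.10 in PBX3_Cl KO (95% interval -0.31 to 0.50). For RNF2 it was -0.09 in PAX6_Ta KO (95% interval -0.52 to 0.34) and -0.11 in PBX3_Cl KO (95% interval -0.54 to 0.32). Per kilobase, RING1 exceeded RNF2 in every library, by 3.97- to 4.15-fold in PAX6_Ta KO, 3.94- to 4.93-fold in PBX3_Cl KO and 3.67- to 3.89-fold in Control.

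BMI1, the PCGF subunit that stimulates the ligase and is known for holding the INK4 locus silent, had 1891 and 2067 counts in PAX6_Ta KO, 1943 and 1284 in PBX3_Cl KO, and 2911 and 2072 in Control. Its levels were 39.4 and 39.3 CPM in PAX6_Ta KO, 44.1 and 28.0 CPM in PBX3_Cl KO, and 48.5 and 41.0 CPM in Control. PAX6_Ta KO lay just below Control without overlap, at a log2 fold change of -0.19 (edgeR adjusted p = 0.735), and PBX3_Cl KO overlapped Control at -0.31 (edgeR adjusted p = 0.541). That BMI1 value was -0.72 without PBX3_Cl KO replicate 1 (edgeR adjusted p = 0.0513) and -0.02 without PBX3_Cl KO replicate 2 (edgeR adjusted p = 0.968). The read-through gene COMMD3-BMI1, which covers BMI1 on the same strand, was listed at 0 counts in every library. The INK4 genes CDKN2A and CDKN2B were also at 0 counts in all 6 libraries, and K562 is known to lack that locus, so this target of BMI1 and EZH2 could not be read.

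KDM6B, the demethylase that opposes PRC2, was the lowest of the 10 per kilobase in each group, and in PBX3_Cl KO it was the least repeatable. It had 731 and 965 counts in PAX6_Ta KO, 484 and 1461 in PBX3_Cl KO, and 835 and 965 in Control. Its levels were 15.2 and 18.3 CPM in PAX6_Ta KO, 11.0 and 31.9 CPM in PBX3_Cl KO, and 13.9 and 19.1 CPM in Control. The 2 PBX3_Cl KO libraries differed by 2.91-fold, when the median gene differed by 1.24-fold in that group. Of 9019 genes with a mean of at least 10 CPM, 0.632% differed by more. A non-coding gene that is not among the counted entries overlaps KDM6B on the same strand, and its reads may have been counted as KDM6B. The log2 fold change was 0.02 in PAX6_Ta KO (95% interval -0.80 to 0.84) and 0.38 in PBX3_Cl KO (95% interval -0.44 to 1.20) against Control. In PAX6_Ta KO against PBX3_Cl KO it was -0.35 (edgeR adjusted p = 0.647). The direction depended on which PBX3_Cl KO library was left out. Without replicate 1, KDM6B had 0.91 in PBX3_Cl KO against Control (edgeR adjusted p = 0.0405) and -0.89 in PAX6_Ta KO against PBX3_Cl KO (edgeR adjusted p = 0.0357). Without replicate 2 the signs were the opposite, at -0.58 in PBX3_Cl KO against Control (edgeR adjusted p = 0.206) and 0.60 in PAX6_Ta KO against PBX3_Cl KO (edgeR adjusted p = 0.166).

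Per kilobase of canonical transcript, the order of levels in PAX6_Ta KO began with RING1 at 40.5 CPM per kb, then EZH2 at 33.7 and CBX2 at 18.5, and ended with CBX8 at 6.15 and KDM6B at 2.49. In PBX3_Cl KO it began with EZH2 at 63.0, RING1 at 42.9 and CBX2 at 36.4, and ended with CBX8 at 6.37 and KDM6B at 3.19. In Control it began with EZH2 at 50.2, RING1 at 40.1 and CBX2 at 36.7, and ended with CBX8 at 7.22 and KDM6B at 2.45. In Control RING1 and CBX2 overlapped and could not be ranked, and so did EZH1 at 12.9 and BMI1 at 12.6. In PAX6_Ta KO the first 3 places did not overlap.

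The genes whose log2 CPM followed EZH2 most closely over the 6 libraries were COL4A6 (Pearson r = 0.998) and FBXO41 (r = 0.997), and those closest to CBX2 were LINC01388 (r = 0.999) and ASB6 (r = 0.996). These are descriptions over 6 libraries that fall into 3 groups and share their depth and scaling.

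The wider Polycomb and Trithorax lists are given beside the 11.4% of all genes called in PAX6_Ta KO and the 8.97% called in PBX3_Cl KO against Control, with 22.7% (PAX6_Ta KO) and 19.6% (PBX3_Cl KO) at an unadjusted p under 0.05. Of 8 tested PRC2 genes outside the 10, none passed in PAX6_Ta KO and 1 was higher in PBX3_Cl KO. That gene was PHF19, a Polycomb-like subunit that helps PRC2 reach its targets, with 7739 and 7566 counts in PAX6_Ta KO, 14420 and 15871 in PBX3_Cl KO, and 8503 and 6214 in Control. PHF19 averaged 337 ± 13.7 CPM in PBX3_Cl KO, against 132 ± 13.1 CPM in Control (SD, n = 2 each), and the log2 fold change was 1.35 (SE 0.198, edgeR adjusted p = 8.2e-04). It was also lower in PAX6_Ta KO than in PBX3_Cl KO (log2 fold change -1.14, edgeR adjusted p = 0.00214), and its arm, 9q, had a median of 0.04 in PBX3_Cl KO against Control. None of the 8 other canonical PRC1 genes, 17 variant PRC1 genes, 9 genes of the deubiquitinase PR-DUB or 13 Trithorax and H3K27 demethylase genes passed against Control in either knockout. In PAX6_Ta KO the unadjusted p was under 0.05 for 1 PRC2, 1 canonical PRC1, 2 variant PRC1, 1 PR-DUB and 2 Trithorax genes, all lower. In PBX3_Cl KO it was under 0.05 for 2 canonical PRC1 genes (1 higher and 1 lower), 1 variant PRC1 gene and 1 Trithorax gene, the last 2 higher, and for none of PR-DUB. The median log2 fold changes of these lists lay between -0.20 and 0.16 against Control.

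Between the knockouts, 3 further genes were lower in PAX6_Ta KO, named here after their values were seen. They were PHC2, a PRC1 subunit that links complexes together (log2 fold change -0.70, edgeR adjusted p = 0.0274), KMT2C, an H3K4 methyltransferase (-0.77, edgeR adjusted p = 0.0479), and its partner PAXIP1 (-0.76, edgeR adjusted p = 0.0369). KMT2C and PAXIP1 lie on 7q like EZH2, and PHC2 on 1p, where the median was -0.32. All 3 calls were lost with the arm medians taken out.

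Of 15 proliferation genes, beside the same shares of all genes, none passed in PAX6_Ta KO and 1 was lower in PBX3_Cl KO against Control, CDK1 (log2 fold change -0.93, edgeR adjusted p = 0.0261), and CDK1 did not pass without PBX3_Cl KO replicate 2 (edgeR adjusted p = 0.0725) or without Control replicate 1 (edgeR adjusted p = 0.0516). Summed, the 15 genes stood at 5154 and 4699 CPM in PAX6_Ta KO, 5648 and 4858 CPM in PBX3_Cl KO, and 5548 and 5027 CPM in Control. In PAX6_Ta KO against PBX3_Cl KO 1 of the 15, RRM2, was lower (log2 fold change -0.78, edgeR adjusted p = 0.0380), named here after its value was seen, and that call was lost with the arm medians taken out. EZH2 is known to follow cell division, and the part of cell division in the EZH2 values was not tested.

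HOX genes are the classic Polycomb targets. Of 39 HOX genes 27 could be tested, and 13 of these were higher and none lower in PAX6_Ta KO against Control. Over all tested genes, 7.21% were higher and 4.21% lower. All 13 passed the filter on low counts only through the PAX6_Ta KO libraries, where they were high. A call in the other direction was therefore hardly possible for them, and their number cannot be weighed against those shares. Of the 13 HOX genes that passed the filter without those libraries, none was called in either direction. HOXD13 had 351 and 364 counts in PAX6_Ta KO, 0 and 0 in PBX3_Cl KO, and 2 and 0 in Control. Scaled for depth, its ratio of PAX6_Ta KO to Control was 392, which rests on a Control total of 2 counts. HOXA3 had 156 and 204 counts in PAX6_Ta KO, 5 and 14 in PBX3_Cl KO, and 2 and 1 in Control. These 2 genes had at most 2 counts in a Control library. With a filter of at least 50 counts in every library of a group, 7 of 19 tested HOX genes were called in place of 13 of 27.

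In PBX3_Cl KO against Control, HOXA3 was higher (fitted log2 fold change 2.85, edgeR adjusted p = 0.0386) and HOXC13 lower (-1.71, edgeR adjusted p = 0.0136). No other of the 27 tested HOX genes passed. Of the 27, 14 passed the filter on low counts only through the PAX6_Ta KO libraries. Some of these, such as HOXA9 and HOXD4, had 0 counts in every PBX3_Cl KO and Control library and could not be called here. The number called therefore cannot be weighed against the 8.97% of all genes called in this comparison. The HOXA3 call rested on the 5 and 14 counts above and was lost in 6 of the 13 alternatives that gave a value. The HOXA cluster lies on 7p, whose median log2 fold change against Control was 0.65 with PAX6_Ta KO and 0.58 with PBX3_Cl KO, and the HOXD cluster on 2q, where it was -0.03 in both. The HOX genes and CBX2 were both read in the same 2 PAX6_Ta KO libraries, and a link between them was not tested.

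Markers of other cell types stayed low beside the erythroid sum, but some moved with the groups. The summed megakaryocyte markers lay at 5.20 to 6.54 CPM in PAX6_Ta KO, 10.4 to 12.2 CPM in PBX3_Cl KO and 20.7 to 81.9 CPM in Control, with PF4 at 0 in PBX3_Cl KO. The fibroblast markers lay at 23.0 to 23.1 CPM in PAX6_Ta KO, 3.04 to 3.19 CPM in PBX3_Cl KO and 49.0 to 133 CPM in Control, with LUM at 0 in all 6 libraries. The epithelial markers lay at 222 to 309 CPM in PAX6_Ta KO, 268 to 363 CPM in PBX3_Cl KO and 123 to 207 CPM in Control, with KRT5 and KRT14 at 0. The lymphoid markers lay at 8.07 to 10.7 CPM in PAX6_Ta KO, 5.04 to 7.69 CPM in PBX3_Cl KO and 7.47 to 8.98 CPM in Control, with MS4A1 at 0, and the monocyte and neutrophil markers at 15.1 to 19.7 CPM in PAX6_Ta KO, 7.47 to 8.91 CPM in PBX3_Cl KO and 6.10 to 17.5 CPM in Control. Their part in the CBX2, EZH2 and HOX values was not tested.

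**Figure D3:**
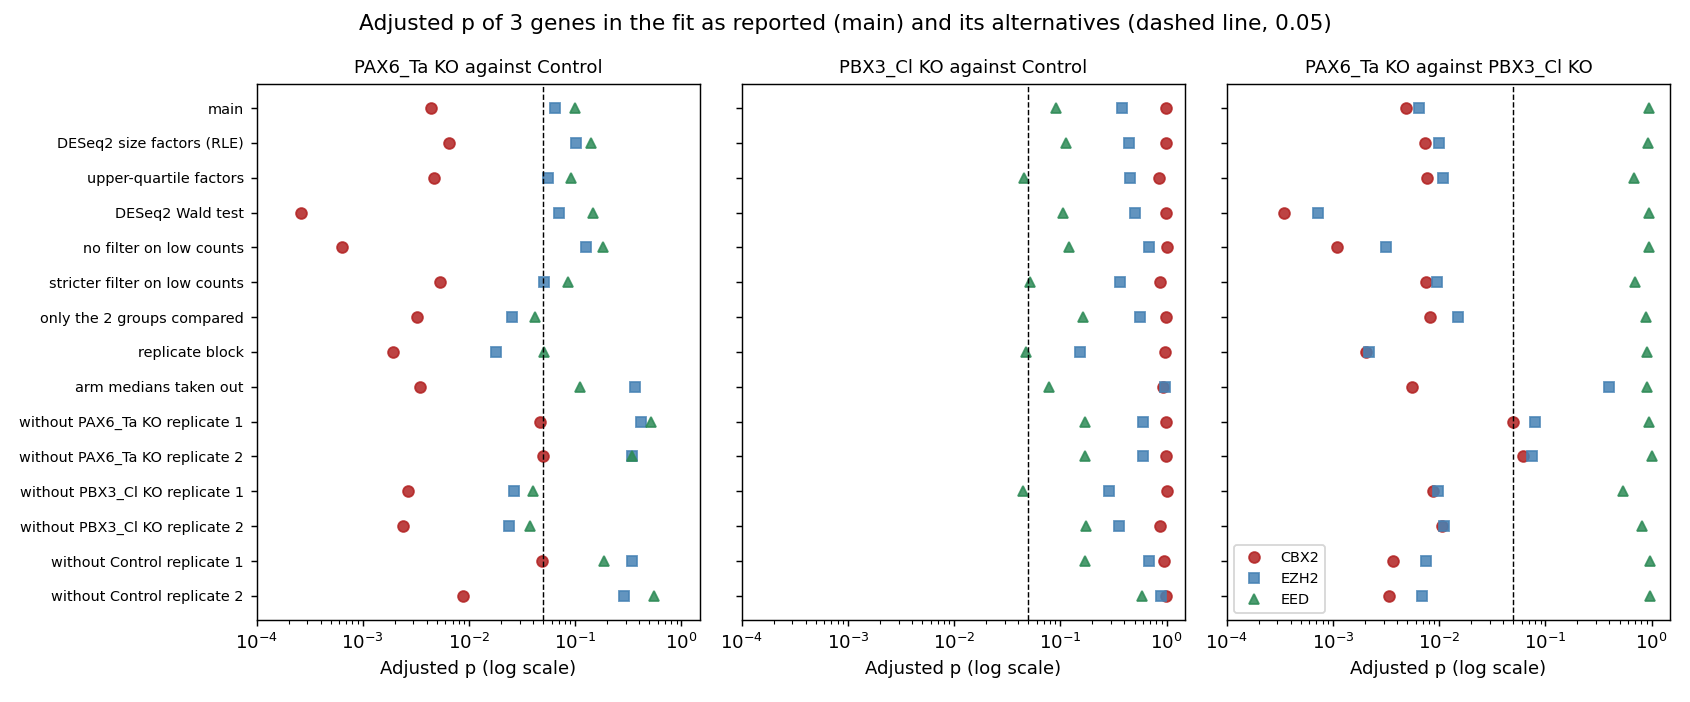
Adjusted p (x axis, log scale) of CBX2, EZH2 and EED in the reported fit (main) and 14 alternatives (y axis) for the 3 comparisons, with a dashed line at 0.05. CBX2 stays below the line in every setting of PAX6_Ta KO against Control, and EZH2 crosses it with the arm medians taken out in PAX6_Ta KO against PBX3_Cl KO.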

How the data were processed

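Stranded libraries (Collibri kit) of RNA extracted with ISOLATE II columns were read on a NovaSeq. Per the submitters' processing notes they used Cutadapt 3.4, STAR and genome GRCh37 (Ensembl release 75). The authors deposited raw counts per gene, and the sources used here do not give the strand setting or the versions of STAR and DESeq2. Deposited tables of log2 fold changes and p-values for the PAX6_Ta, PBX3_Cl, QKI_Jo and ZNF503_Op knockouts were not used, nor were 4 further sample columns.

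Counts of all 6 libraries were filtered with filterByExpr (20746 of 52088 entries kept), scaled by TMM and tested in a single edgeR 4.0.16 quasi-likelihood fit on the group (R 4.3.3), with Benjamini-Hochberg adjustment over all tested genes and a threshold of 0.05. CPM were divided by the length of the Ensembl canonical transcript for levels per kilobase (GENCODE v44 on GRCh37, 51481 entries matched). The script was tested on simulated data for PAX6_Ta KO against Control over 20746 genes, where 29.2% of 48 genes lowered by 1 on the log2 scale and 74.5% of 47 lowered by 2 were called.

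The 14 alternatives were DESeq2 size factors, upper-quartile factors, the DESeq2 1.42.0 Wald test, no filter, a filter of 50 counts in every library of at least 1 group, only the 2 groups compared, the replicate number as a block, chromosome-arm medians taken out, and each of the 6 libraries left out. Replicate numbers are shared by the labels of all 3 groups. The differences between replicate 1 and 2 correlated at 0.339 (PAX6_Ta KO with Control), 0.184 (PBX3_Cl KO with Control) and 0.338 (PAX6_Ta KO with PBX3_Cl KO). A pairing of libraries by number is thus possible from the data, but the labels do not state it. The reported fit has no term for the replicate number, and the block was run as an alternative. Under it EZH2 in PAX6_Ta KO and EED in PBX3_Cl KO against Control also passed.

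All 10 genes were described in every comparison, and from each wider list up to 3 called genes per direction and comparison with Control with the smallest adjusted p. The members and lists were chosen with earlier results of these data known. EPOP, PCGF2 and PAGR1 were not analysed here, and some results that the rule covers are not reported here.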

Additional observations from a re-analysis of the deposited data

Results flagged for a closer look

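The 2 knockout groups differed from each other in EZH2 and CBX2, by the direct test of PAX6_Ta KO against PBX3_Cl KO, which equals the test of the difference between their fold changes against Control. Clone and deletion cannot be told apart in this difference. The log2 fold change was -0.90 for EZH2 (edgeR adjusted p = 0.00643) and -0.97 for CBX2 (edgeR adjusted p = 0.00486), both lower in PAX6_Ta KO in 2 of 2 libraries. The median of 7q, where EZH2 lies, differed by -0.64 between the same groups, and that of 17q, where CBX2 lies, by 0.01. With arm medians taken out EZH2 stood at -0.30 and no longer passed, while CBX2 stood at -0.96 (edgeR adjusted p = 0.00549). Without PAX6_Ta KO replicate 2 neither passed, with an edgeR adjusted p of 0.0748 for EZH2 and 0.0609 for CBX2, and without PAX6_Ta KO replicate 1 EZH2 did not pass (edgeR adjusted p = 0.0798).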

How the results depend on the processing

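Of the 30 results for the 10 genes, 22 changed call in none of the 14 alternatives and no call reversed. Signs of values that were not called did turn in some alternatives, among them those of EZH1 and KDM6B. In PAX6_Ta KO against Control, where 1 of the 10 was called, 3 were called with only the 2 groups compared, 2 with the replicate block and 1 to 3 with a library left out, the additions being EZH2 and EED. In PBX3_Cl KO against Control, with none called, the count was 1 with upper-quartile factors (EED, edgeR adjusted p = 0.0460), 1 with the replicate block and 0 to 2 with a library left out. In PAX6_Ta KO against PBX3_Cl KO, with 2 called, 1 was called with arm medians taken out and 0 to 4 with a library left out. Where a group was left with 1 library, that library was assumed to vary like the other groups.

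Under the replicate block, the genes called were 3548 in PAX6_Ta KO against Control in place of 2370, 2798 in PBX3_Cl KO against Control in place of 1860 and 3877 in PAX6_Ta KO against PBX3_Cl KO in place of 2483. The block ended no call among the 10 genes and added EZH2 in PAX6_Ta KO and EED in PBX3_Cl KO against Control. In the wider lists it added 1 PR-DUB, 2 Trithorax and 1 proliferation gene, all lower, in PAX6_Ta KO against Control, and 1 canonical PRC1 and 1 Trithorax gene, both higher, in PBX3_Cl KO against Control.

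With a library left out the genes called were 1375 to 3368 in PAX6_Ta KO against Control (1375 without PAX6_Ta KO replicate 1), 1371 to 1930 in PBX3_Cl KO against Control and 1431 to 2818 in PAX6_Ta KO against PBX3_Cl KO (1431 and 1434 without PAX6_Ta KO replicate 1 and 2). Of the genes called in that comparison, 1091 were higher and 1392 lower in PAX6_Ta KO as reported, but 1135 and 881 with arm medians taken out, so the direction of the larger share depends on that choice. Each of the 10 genes had at least 484 counts per library.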
